A study of Homo sapiens with 8 samples.

Results

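The aryl hydrocarbon receptor and 5 genes around it were followed across 8 libraries of enzalutamide-resistant and enzalutamide-sensitive prostate cancer cells. The 6 genes are AHR, its dimer partner ARNT, the repressor AHRR, and the target genes CYP1A1, CYP1B1 and TIPARP. They were taken by gene symbol from each of the 3 deposited tables. All 6 were listed in all 3 tables, of 16126 genes listed in at least 1 table. They were chosen after several of them had been seen to be higher in resistant cells in these same data, so their differences between resistant and sensitive cells are given as descriptions without a test.

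AHR is a transcription factor of the bHLH-PAS family that waits in the cytosol, bound to HSP90, until a ligand binds. Ligands include dioxins, polycyclic aromatic hydrocarbons and products of tryptophan. The receptor then enters the nucleus, pairs with ARNT and binds DNA at a short element with the core GCGTG. Genes switched on in this way include CYP1A1 and CYP1B1, P450 enzymes that oxidise aromatic hydrocarbons and oestrogens, and AHRR and TIPARP, both of which restrain the receptor. AHRR competes with AHR for ARNT, and TIPARP attaches ADP-ribose to the receptor.

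Enzalutamide blocks the androgen receptor, and the study compared lines resistant to it (ENZR) with the sensitive lines of the same name by sequencing polyadenylated RNA. C4-2BENZR and C4-2B, which descend from the LNCaP line, gave 2 libraries each, and the cells of all 4 carried a luciferase and a GFP transgene. CWR-R1ENZR and CWR-R1, from a relapsed prostate xenograft, gave 1 library each. VCaPENZR and VCaP, from a vertebral metastasis, gave 1 library each. The sources used here do not say how resistance was obtained, whether a resistant line is 1 clone, or whether drug was present at harvest.

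Levels are scaled read counts, that is, reads divided by a library size as the authors deposited them. The libraries held 14503586 to 20248655 reads in the listed genes. The tables listed 13969 genes for C4-2B, 14809 for CWR-R1 and 14800 for VCaP. The 3 tables were normalized separately, so levels set side by side across tables carry that difference in scaling. Of 8 markers of prostate luminal epithelium, all 8 were listed in every table. Their summed level was 3503 and 3700 in C4-2BENZR against 4847 and 4886 in C4-2B, 2738 in CWR-R1ENZR against 1949 in CWR-R1, and 5187 in the library labelled VCaPENZR against 10233 in VCaP. KLK3, which encodes prostate-specific antigen, had 49.2 and 48.1 in C4-2BENZR against 2067 and 2024 in C4-2B, no read in CWR-R1ENZR against 1.96 in CWR-R1, and 0.774 in the library labelled VCaPENZR against 465 in VCaP. The luminal keratins KRT8 and KRT18 were higher in each resistant library than in the sensitive ones of its table. At most 2 of the 4 markers each of fibroblasts, endothelium and leukocytes were listed in any table. The fibroblast sum was 54.0 and 49.4 in C4-2BENZR against 15.1 and 12.3 in C4-2B, 66.4 in CWR-R1ENZR against 33.8 in CWR-R1, and 17.3 in the library labelled VCaPENZR against 29.5 in VCaP. Its 2 listed members went opposite ways in the CWR-R1 and VCaP tables, with COL1A1 higher and LUM lower in CWR-R1ENZR and in the library labelled VCaPENZR. The endothelial sum was 3.54 and 3.88 in C4-2BENZR against 7.53 and 7.25 in C4-2B, 27.5 in CWR-R1ENZR against 5.73 in CWR-R1, and 18.6 in the library labelled VCaPENZR against 3.13 in VCaP, nearly all of it VWF. The leukocyte sum was 9.83 and 12.04 in C4-2BENZR against 13.1 and 15.6 in C4-2B, 3.89 in CWR-R1ENZR against 2.83 in CWR-R1, and 10.4 in the library labelled VCaPENZR against 3.36 in VCaP. PECAM1, CDH5, PTPRC and CD3E were in none of the tables used here. The part of these markers in the results below was not tested.

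The library labelled VCaPENZR went against its label. ERG, which the VCaP line expresses from a gene fusion, had a level of 0.179 (3 reads) in the library labelled VCaPENZR and 428 in VCaP. Over 12868 genes listed in all tables, its log2 levels had a correlation of 0.940 with CWR-R1ENZR, 0.890 with CWR-R1 and 0.728 with VCaP. Whether this library came from VCaP cells cannot be told from the files. Each comparison with VCaP is therefore given as one between the library labelled VCaPENZR and the VCaP library, and its values are also set beside those of the CWR-R1 lines.

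The stretches before the starts of the target genes are shown first, because the GCGTG core of the AHR-ARNT element can be read in them. RefSeq promoter sequences of the GRCh38.p14 assembly were matched for 5 of the 6 genes, with 8 annotated starts. The 250 bases before each start were searched for GCGTG on both strands, where the opposite strand reads CACGC, and 4 of the 8 windows held it. In the windows printed here, 5′ to 3′ on the gene's strand, every core is in capitals.
CYP1A1, chr15:74725529-74725778, minus strand: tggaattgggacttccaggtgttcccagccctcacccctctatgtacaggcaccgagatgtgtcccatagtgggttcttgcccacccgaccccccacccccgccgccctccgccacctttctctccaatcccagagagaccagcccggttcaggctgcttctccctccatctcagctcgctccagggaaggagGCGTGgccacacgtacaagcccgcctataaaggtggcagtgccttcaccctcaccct
AHRR start 1, chr5:321464-321713, plus strand: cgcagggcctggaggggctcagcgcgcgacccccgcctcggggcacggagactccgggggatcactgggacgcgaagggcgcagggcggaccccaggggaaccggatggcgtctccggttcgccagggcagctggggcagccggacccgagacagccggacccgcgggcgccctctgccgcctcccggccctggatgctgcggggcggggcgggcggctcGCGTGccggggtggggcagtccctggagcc
AHRR start 2, chr5:322360-322609, plus strand: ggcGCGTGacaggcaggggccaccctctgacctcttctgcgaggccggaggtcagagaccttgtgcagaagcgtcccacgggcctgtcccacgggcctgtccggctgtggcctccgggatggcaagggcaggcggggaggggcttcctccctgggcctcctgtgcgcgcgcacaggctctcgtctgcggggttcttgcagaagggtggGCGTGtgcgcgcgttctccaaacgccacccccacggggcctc
TIPARP start 1, chr3:156674340-156674589, plus strand: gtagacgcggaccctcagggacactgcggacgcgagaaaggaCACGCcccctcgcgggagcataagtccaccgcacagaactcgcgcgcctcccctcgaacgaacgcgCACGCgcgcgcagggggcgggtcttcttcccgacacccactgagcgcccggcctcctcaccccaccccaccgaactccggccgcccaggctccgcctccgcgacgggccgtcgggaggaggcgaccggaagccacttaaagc
CYP1A1 had 1 core, which ended 53 bases before the start. AHRR had 1 core at start 1, which ended 26 bases before it, and 2 cores at start 2. TIPARP had 2 cores on the opposite strand at start 1 and none at its starts 2 and 3. The windows of AHR and ARNT held none. The longer form TNGCGTG, which contains the core, was found only at AHRR start 1 among these windows. These are common letters: GCGTG was in 32.2% of 34941 RefSeq promoter windows of that length, and TNGCGTG in 4.52%. Those windows had a median of 58% G and C, against 62.4% to 79.2% in the 4 windows with a core. The background shares are thus not from windows of like composition. The regulatory elements best known at CYP1A1 lie farther upstream than this window, and a match describes the letters alone.

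**Figure D1:**
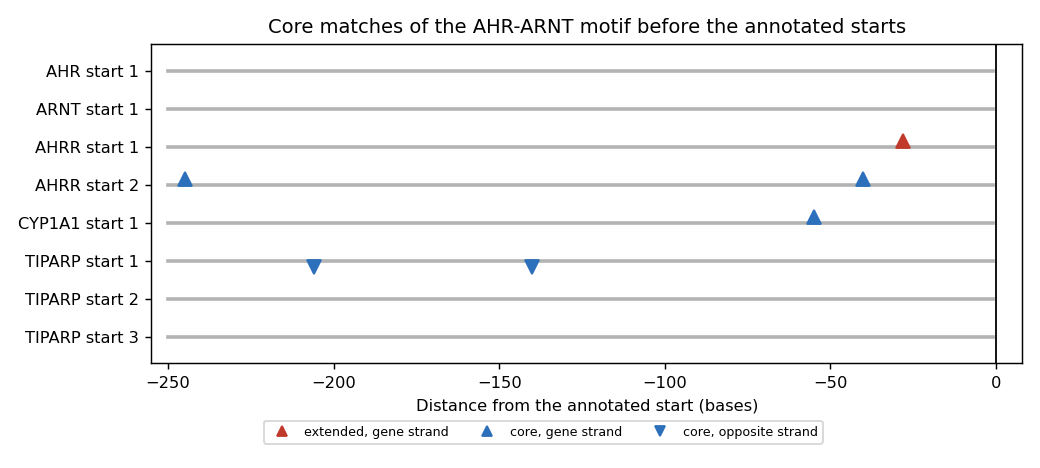
Position of each match of the GCGTG core in the 250 bases before 8 annotated starts of AHR, ARNT, AHRR, CYP1A1 and TIPARP; the x axis is the distance from the start in bases, triangles pointing up are matches on the gene's strand and those pointing down on the opposite strand. Matches lie before 4 of the 8 starts, and the red triangle at AHRR start 1 is the longer form TNGCGTG.

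C4-2BENZR and CWR-R1ENZR had more AHR, CYP1A1, TIPARP, AHRR and ARNT RNA than the sensitive cells of their tables. The library labelled VCaPENZR also had more of each than VCaP, though its line of origin is uncertain. CYP1B1 was higher in C4-2BENZR and lower in the other 2 comparisons. The differences ranged widely in size. CYP1A1 was 3.23-fold higher in C4-2BENZR, 8.39-fold higher in CWR-R1ENZR and 32.4-fold higher in the library labelled VCaPENZR. In bulk RNA such differences cannot be told apart from a change in the share of cells that express the gene.

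The receptor itself was scarce in both C4-2B lines and abundant in CWR-R1ENZR. AHR had levels of 2.79 and 3.53 (59 and 61 reads) in the C4-2BENZR libraries, against 1.55 and 1.86 (30 and 36 reads) in the C4-2B libraries. Both resistant libraries were above both sensitive ones. The mean was 3.16 ± 0.526 in C4-2BENZR and 1.71 ± 0.223 in C4-2B (SD, n = 2 libraries per group), a 1.85-fold difference, and single library pairs gave 1.496-fold to 2.283-fold. On the log2(value + 1) scale the difference was 0.62 with a limma standard error of 0.212, and edgeR on the recovered reads, which adds no pseudocount of 1, gave 0.89. A pseudocount of 1 understates the change of genes at so low a level.

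In CWR-R1ENZR, AHR reached 246 (3666 reads), against 38.4 (569 reads) in CWR-R1. That is a 6.40-fold difference, with a 95% exact binomial interval of 5.857 to 7.003 that covers counting error only. AHR was at 217 (3637 reads) in the library labelled VCaPENZR, against 4.90 (86 reads) in VCaP. The ratio was 44.2, with an interval of 35.7 to 55.4. Neither comparison has a replicate. From highest to lowest, the 6 groups ranked CWR-R1ENZR, the library labelled VCaPENZR, CWR-R1, VCaP, C4-2BENZR and C4-2B. The 95% Poisson counting intervals of CWR-R1ENZR, the library labelled VCaPENZR, CWR-R1 and VCaP did not overlap one another. AHR in the library labelled VCaPENZR was thus nearer to CWR-R1ENZR than to VCaP. At the low end some counting intervals did overlap. That of VCaP began at 3.92, below the upper end of 4.54 for C4-2BENZR replicate 2. That of C4-2BENZR replicate 1 began at 2.12, below the upper end of 2.58 for C4-2B replicate 2. Counting error therefore does not separate every library of VCaP, C4-2BENZR and C4-2B in that order.

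ARNT, the partner that AHR shares with the hypoxia factors, was higher in C4-2BENZR and CWR-R1ENZR than in their sensitive lines by a small factor. It had levels of 64.6 and 74.5 in C4-2BENZR, against 58.2 and 55.5 in C4-2B. The means were 69.6 ± 6.95 in C4-2BENZR and 56.9 ± 1.87 in C4-2B (SD, n = 2 each), a 1.22-fold difference. On the log2(value + 1) scale it was 0.28 with a standard error of 0.0791. CWR-R1ENZR had 103 and CWR-R1 had 89.2, a ratio of 1.15 with an interval of 1.07 to 1.24. ARNT was at 84.1 in the library labelled VCaPENZR and 42.9 in VCaP, a ratio of 1.96 with an interval of 1.79 to 2.14. Beside sensitive CWR-R1, at 89.2, ARNT in that library was not higher, and the counting intervals of both overlapped. Across all 8 libraries ARNT lay between 42.9 and 103, the smallest ratio of highest to lowest level among the 6 genes. The log2 difference in the C4-2B table was 0.18 without C4-2BENZR replicate 2.

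AHRR, the repressor that competes for ARNT, was scarce in the C4-2B table. It had 1.51 and 0.811 (32 and 14 reads) in C4-2BENZR, against 0.722 and 0.466 (14 and 9 reads) in C4-2B. The ranges did not overlap, but the lower C4-2BENZR library and the higher C4-2B library held 14 reads each. AHRR did not pass the filter on low values there, so it has no standard error, while the other 5 genes passed, and its mean ratio of 1.96 spanned 1.12 to 3.25 over single library pairs. On the log2(value + 1) scale its difference was 0.42, and 0.19 without C4-2BENZR replicate 1. In CWR-R1ENZR it reached 17.6 (262 reads), against 1.96 (29 reads) in CWR-R1. The ratio of 8.97, with an interval of 6.10 to 13.7, was of similar size to that of CYP1A1 in the same comparison. Its level was 8.51 (143 reads) in the library labelled VCaPENZR, against 2.39 (42 reads) in VCaP, a ratio of 3.56 with an interval of 2.51 to 5.15. AHRR lies in a read-through locus with PDCD6, whose reads may not be fully separable from its own. PDCD6 itself had 61.3 in C4-2BENZR against 82.5 in C4-2B, and 66.4 in CWR-R1ENZR against 61.7 in CWR-R1.

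CYP1A1, the P450 enzyme most often used as a readout of AHR activity, had the highest ratio of the 6 genes in the C4-2B table. The C4-2BENZR libraries had 13.5 and 14.2 (286 and 245 reads), against 3.97 and 4.61 (77 and 89 reads) in the C4-2B libraries. The means were 13.9 ± 0.476 in C4-2BENZR and 4.29 ± 0.449 in C4-2B (SD, n = 2 each). Single library pairs gave 2.93-fold to 3.57-fold, and the log2(value + 1) difference was 1.49 with a standard error of 0.161.

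CYP1A1 was far more abundant in the CWR-R1 lines. CWR-R1ENZR had 281 (4190 reads), against 33.5 (496 reads) in CWR-R1, a ratio of 8.39 with an interval of 7.64 to 9.23. The library labelled VCaPENZR had 297 (4993 reads), against 9.17 (161 reads) in VCaP, a ratio of 32.4 with an interval of 27.7 to 38.2. The counting intervals of CWR-R1ENZR and the library labelled VCaPENZR overlapped. C4-2BENZR stood above VCaP and C4-2B, the sensitive groups with the lowest CYP1A1.

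TIPARP, the ADP-ribosyltransferase that is both induced by AHR and acts on it, was between 2.40-fold and 6.22-fold higher over the 3 comparisons. It had 25.6 and 28.7 in C4-2BENZR, against 9.85 and 12.6 in C4-2B. The means were 27.1 ± 2.16 in C4-2BENZR and 11.2 ± 1.93 in C4-2B (SD, n = 2 each), a 2.42-fold difference, with a log2(value + 1) difference of 1.21 and a standard error of 0.136. CWR-R1ENZR had 84.0 and CWR-R1 had 35.0, a ratio of 2.40 with an interval of 2.16 to 2.66. These 2 comparisons thus gave nearly the same ratio for TIPARP, although those of AHR and CYP1A1 differed between them. TIPARP was at 80.3 in the library labelled VCaPENZR and 12.9 in VCaP, a ratio of 6.22 with an interval of 5.40 to 7.19. VCaP and C4-2B, which held the least TIPARP, overlapped in their interval and range.

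CYP1B1, the P450 enzyme that hydroxylates oestradiol and is the other classical CYP1 target, went both ways. It had 7.23 and 6.89 in C4-2BENZR, against 4.74 and 5.18 in C4-2B. With means of 7.06 ± 0.239 in C4-2BENZR and 4.96 ± 0.305 in C4-2B (SD, n = 2 each), it was 1.42-fold higher, and the log2(value + 1) difference was 0.44 with a standard error of 0.171. CWR-R1ENZR had 7.24 (108 reads), against 9.85 (146 reads) in CWR-R1, which is 1.36-fold lower with an interval of 1.05 to 1.76. The library labelled VCaPENZR had 9.82 (165 reads), against 14.6 (256 reads) in VCaP, which is 1.48-fold lower with an interval of 1.22 to 1.82. Over all libraries CYP1B1 stayed between 4.74 and 14.6, and the groups CWR-R1, the library labelled VCaPENZR, CWR-R1ENZR and C4-2BENZR each overlapped their neighbour in that order. The sources used here do not say whether reads were counted by strand, so reads of TIPARP and CYP1B1 cannot be told from those of their antisense transcripts.

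**Figure D2:**
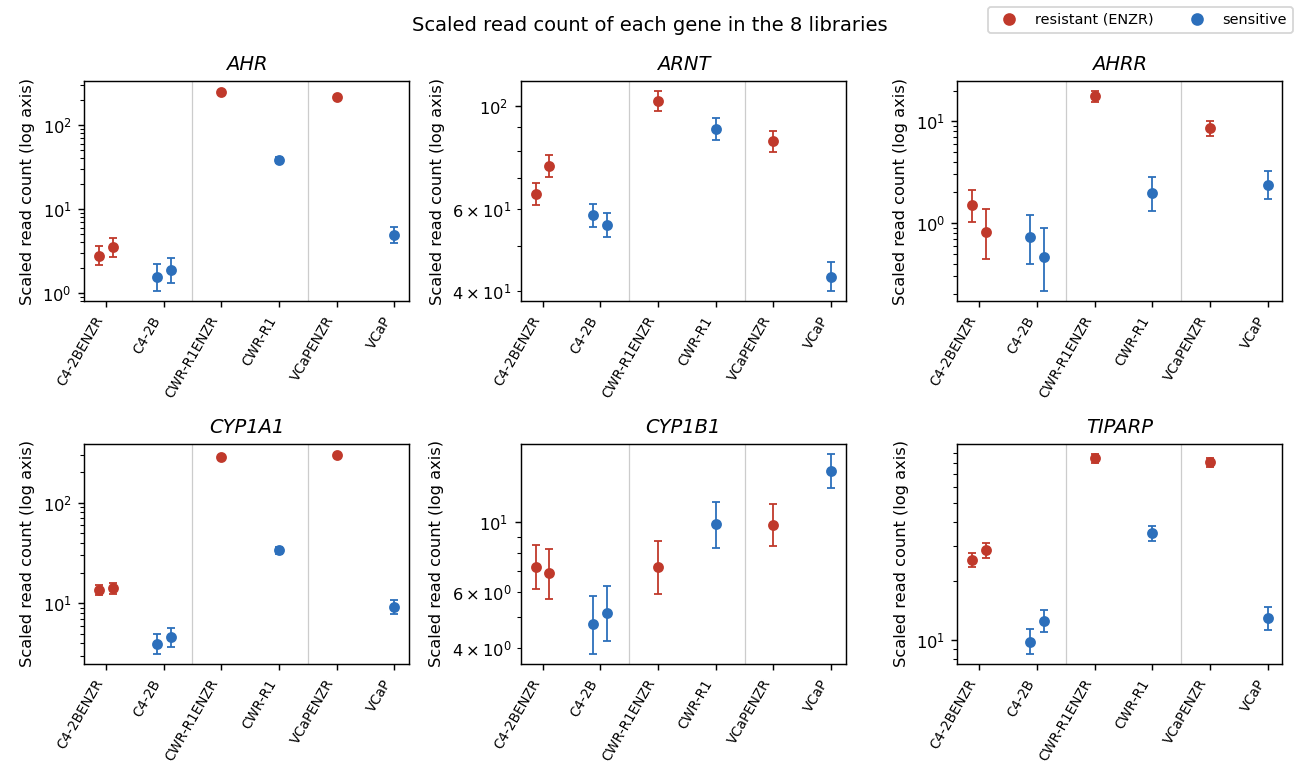
Scaled read count of AHR, ARNT, AHRR, CYP1A1, CYP1B1 and TIPARP in each of the 8 libraries, on a log axis; red points are resistant and blue points sensitive libraries, each point is 1 library and bars are 95% Poisson counting intervals. AHR reaches 246 and 217 and CYP1A1 281 and 297 in CWR-R1ENZR and the library labelled VCaPENZR, and CYP1B1 is the panel in which red points lie below blue ones in the CWR-R1 and VCaP tables.

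**Figure D3:**
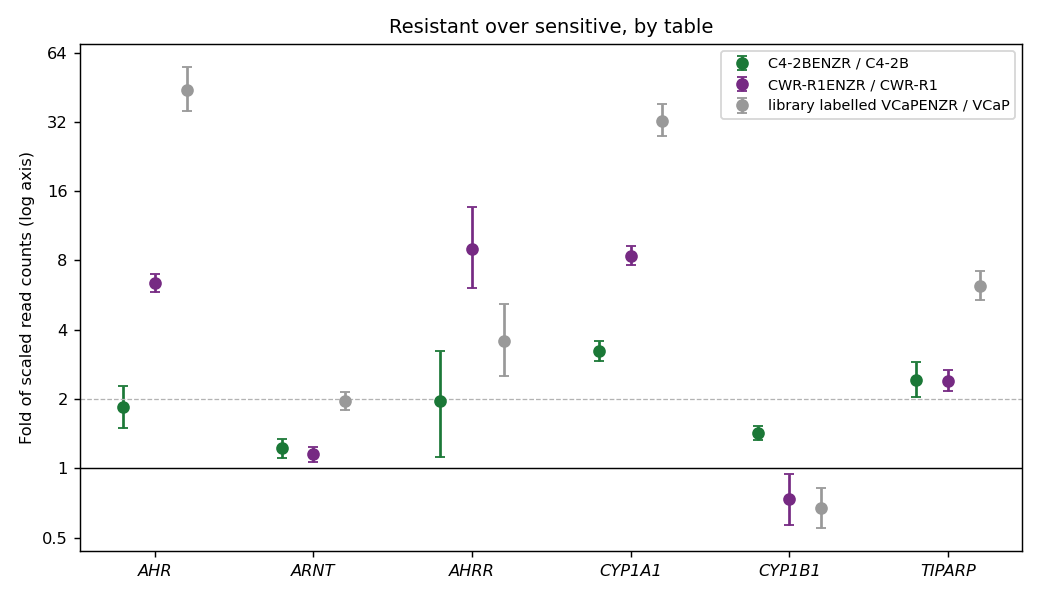
Ratio of the resistant to the sensitive level of each of the 6 genes in the 3 tables, on a log axis with a line at 1 and a dashed line at 2; bars are the lowest and highest single library pair for C4-2B and 95% exact binomial intervals for the other tables. CYP1A1 and TIPARP lie above the dashed line in all 3 comparisons, and CYP1B1 lies above 1 only for C4-2B.

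In all, both C4-2BENZR libraries were above both C4-2B libraries for 6 of the 6 genes, where 38.3% of the 13969 genes listed in that table had the same pattern. Limma called 56.8% of 13280 genes in that comparison in either direction. In CWR-R1ENZR 4 of the 6 (AHR, AHRR, CYP1A1 and TIPARP) were at least 2-fold higher than in CWR-R1, against 9.79% of 12462 genes with a level of at least 5 in either library (20.1% with both directions counted). The same 4 passed that bound in the library labelled VCaPENZR relative to VCaP, where 21.1% of 12502 genes did (43.1% with both directions counted). ARNT joined them there with total reads as the only scaling, at a log2 ratio of 1.05 in place of 0.95. Because the genes were picked from these contrasts, these shares serve as background and nothing is read from them.

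The position of each gene among all genes differed by table. In C4-2BENZR against C4-2B, 2.74% of listed genes had a log2 ratio at least as high as that of CYP1A1, and 4.20% one as high as that of TIPARP. The share was 12.1% for AHR, 17.9% for CYP1B1, 18.4% for AHRR and 26.3% for ARNT. In CWR-R1ENZR against CWR-R1 the shares were 0.864% for CYP1A1, 1.33% for AHRR, 1.34% for AHR, 7.53% for TIPARP, 38.6% for ARNT and 71.5% for CYP1B1. In the library labelled VCaPENZR against VCaP they were 0.534% for AHR, 0.757% for CYP1A1, 5.08% for TIPARP, 13.3% for AHRR, 22.9% for ARNT and 65.4% for CYP1B1. Only CYP1A1 and TIPARP of the 6 genes were at least 2-fold higher on the value + 1 scale in all 3 comparisons, as were 70 of 12868 shared genes (0.544%). With the VCaP table left out, the C4-2B and CWR-R1 comparisons shared 167 such genes (1.3%), with the same 2 genes among them.

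Levels were divided by transcript length to compare the genes with one another. Per kilobase of the principal transcript of the GENCODE annotation, CYP1A1 was the most abundant of the 6 in CWR-R1ENZR, at 104.6, and in the library labelled VCaPENZR, at 110.7. AHR came next in both libraries, with 39.1 per kilobase in CWR-R1ENZR and 34.5 in the library labelled VCaPENZR. In every other library ARNT was the most abundant, from 8.78 per kilobase in VCaP to 18.3 in CWR-R1. CYP1A1 stood at 12.5 per kilobase in CWR-R1 and 3.41 in VCaP, behind ARNT in each. In the C4-2B table TIPARP was next after ARNT, with 6.13 and 6.86 per kilobase in C4-2BENZR against 2.36 and 3.01 in C4-2B. AHR there was at 0.444 and 0.563 per kilobase in C4-2BENZR against 0.247 and 0.297 in C4-2B, so ARNT exceeded AHR in both forms of that line, whereas AHR exceeded ARNT in CWR-R1ENZR.

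The chromosomal neighbours of AHR and CYP1A1 took several directions. Around AHR on chromosome 7, the listed genes among the 5 on each side in RefSeq gene order were compared where either group had a level of at least 5. In C4-2BENZR against C4-2B, 0 of 6 were 2-fold higher or lower, and their median log2 ratio of value + 1 was 0.54, against 0.62 for AHR. AHR had a lower level than each of these neighbours, so a pseudocount of 1 understates its ratio more than theirs. With edgeR, which adds no pseudocount of 1, AHR had 0.89. In CWR-R1ENZR against CWR-R1, TSPAN13, AGR2 and AGR3 were at least 2-fold higher and ITGB8 was lower, of 9 neighbours with a median of -0.09. AGR3, next to AHR and a relative of the estrogen-responsive AGR2, had a level of 20.2 in CWR-R1ENZR and no read in CWR-R1. In the library labelled VCaPENZR, HDAC9 and TWIST1 were higher and AGR2 was lower than in VCaP, of 10 neighbours with a median of 0.51. No neighbour was thus at least 2-fold higher in both of these comparisons, while AHR was.

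Around CYP1A1 on chromosome 15, EDC3, which takes part in mRNA decapping, was the only one of 7 neighbours at least 2-fold higher in CWR-R1ENZR than in CWR-R1, at 135 against 45.5. In C4-2BENZR against C4-2B, 0 of 7 neighbours passed 2-fold in either direction and their median log2 ratio was -0.04. In the library labelled VCaPENZR, ARID3B was higher than in VCaP and 3 of 8 neighbours were lower. CYP1A2, the liver P450 enzyme that lies head to head with CYP1A1 and is also a known AHR target, was low wherever it was listed. It had 4.62 (69 reads) in CWR-R1ENZR against 0.607 (9 reads) in CWR-R1, a ratio of 7.62 with an interval of 3.79 to 17.4. The library labelled VCaPENZR had 1.31 (22 reads) against 0 in VCaP, which makes it at least 7.67-fold higher when VCaP is set at 3 reads. Around TIPARP on chromosome 3, 0 of 4 neighbours in the C4-2B table and 0 of 5 in the CWR-R1 table passed 2-fold. GMPS was 2-fold higher and VEPH1 lower in the library labelled VCaPENZR than in VCaP, of 5 neighbours with a median log2 ratio of 0.83.

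**Figure D4:**
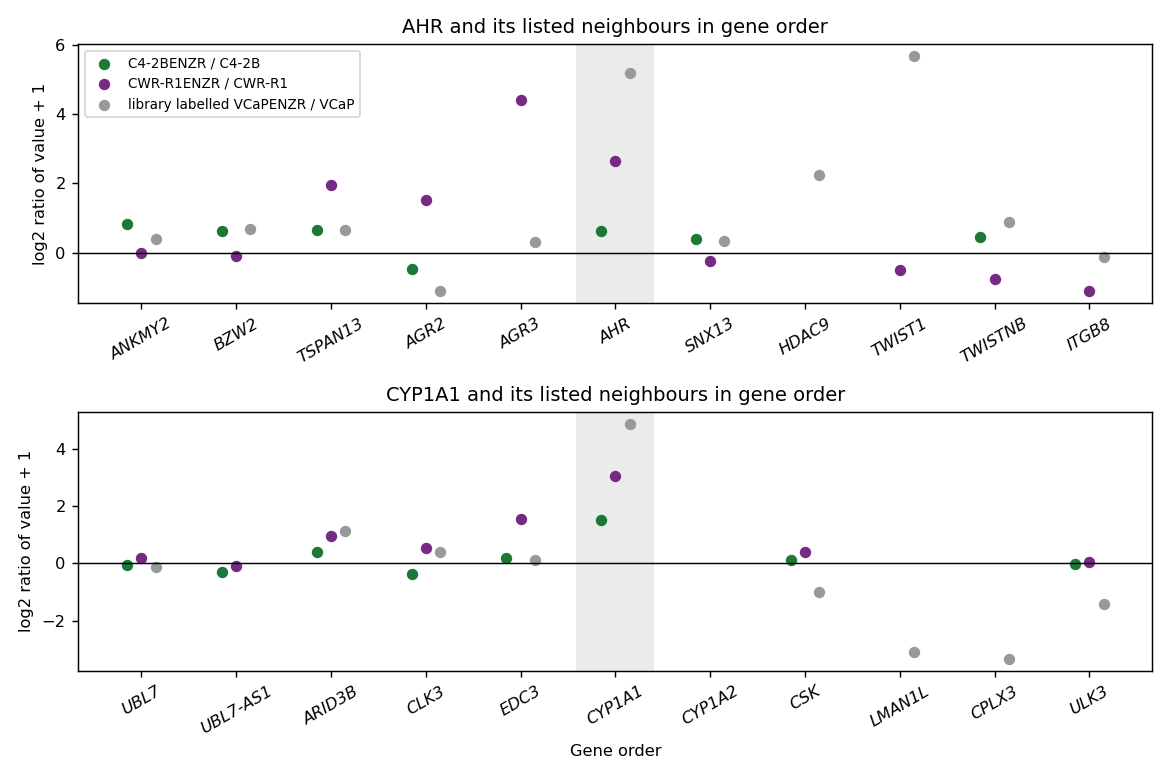
Log2 ratio of value + 1, resistant over sensitive, of AHR and CYP1A1 (grey band) and of the listed genes next to them in RefSeq gene order, with a level of at least 5 in either group; the x axis is gene order, and colours are the 3 tables. In the CWR-R1 comparison the ratio of AHR is 2.65, below that of its neighbour AGR3, and the ratio of CYP1A1 is 3.03; in the VCaP comparison TWIST1, at 5.69, lies above AHR.

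The genes most like each of the 6 over the 8 libraries were found by Pearson correlation of log2(value + 1) among 12302 genes, as a description. The libraries share tables and line of origin. For AHR, CYP1A1, AHRR and TIPARP, CWR-R1ENZR and the library labelled VCaPENZR held the highest levels. AHR was most like TCP11L2, at 0.999, and MAFF, at 0.998. CYP1A1 was most like SMAD3, a mediator of TGF-beta signals, at 0.996. TIPARP was most like ZNF676, at 0.991, and PPP1R18, at 0.989. AHRR was most like KLC3, at 0.986, ARNT most like CPT1C, at 0.987, and CYP1B1 most like YBX3, at 0.986. Over the 7 libraries without that labelled VCaPENZR, TCP11L2 remained first for AHR, at 0.998. For each of the other 5 genes another gene then ranked above the one named first, whose values were 0.994 for SMAD3, 0.989 for ZNF676, 0.990 for KLC3, 0.986 for CPT1C and 0.985 for YBX3.

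The wider pathway was read from 7 lists of 84 genes, of which 67 were listed in at least 1 table. Across them the C4-2B table held 20 genes that rose and 18 that fell in C4-2BENZR, of 60 that passed the filter, or 33.3% and 30%. Among all 13280 genes tested there, 27.8% rose and 29% fell (limma, adjusted p below 0.05). With total reads as the only scaling the list genes split into 24 and 14, and the share of all calls that were higher was 61.9% in place of 48.9%. The lists together were thus near the background in C4-2B, and their median log2 ratio was -0.02. In CWR-R1ENZR against CWR-R1, 6 of 56 list genes were at least 2-fold higher and 3 lower, or 10.7% and 5.36%, with a background of 9.79% and 10.3%. In the library labelled VCaPENZR against VCaP, 8 of 56 were higher and 21 lower, or 14.3% and 37.5%, with a background of 21.1% and 22%.

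Among 18 further genes that AHR is known to induce in some cell types, those that moved did not go one way. In C4-2BENZR 4 of 8 rose and 2 fell, with a median log2 ratio of 0.42. Of all 13280 genes tested there, 27.8% rose and 29% fell. CYP2S1, another P450 enzyme, had 3.40 ± 0.139 in C4-2BENZR and 0.207 ± 0.0736 in C4-2B (131 and 8 reads). GSTA1, a glutathione transferase, had 3.32 in C4-2BENZR and 0.388 in C4-2B, and its reads may include those of its near-identical paralogs. CYP2S1 and GSTA1 are counted among the 4, but passed the filter only through the C4-2BENZR libraries, where they were high. No p-value is therefore given for them. ABCG2 and NEDD9, a drug efflux pump and an adhesion scaffold, also rose. NQO1, a quinone reductase, fell 2.53-fold, to 140 ± 5.86 in C4-2BENZR, against 355 ± 6.63 in C4-2B (SD, n = 2 each; adjusted p = 4.30e-12). SLC7A5, an amino acid transporter, fell 1.92-fold, to 275 in C4-2BENZR, against 529 in C4-2B (adjusted p = 8.54e-11).

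On the value + 1 scale, 0 of 7 of these targets with a level of at least 5 were 2-fold higher in CWR-R1ENZR. The share of all genes at that level was 9.79%. Below that level, CYP1A2 was 7.62-fold higher in CWR-R1ENZR, as given above, and ALDH3A1, an aldehyde dehydrogenase, had 1.34 (20 reads) in CWR-R1ENZR and 0.472 (7 reads) in CWR-R1, a ratio of 2.84 with an interval of 1.15 to 7.94. GSTA1 had no read in CWR-R1ENZR and a level of 12.9 (191 reads) in CWR-R1, at least 64.1-fold lower against a floor of 3 reads. NQO1 had 23.2 in CWR-R1ENZR and 44.0 in CWR-R1, which is 1.90-fold lower. In the library labelled VCaPENZR, 4 of 7 were higher than in VCaP, among them NQO1 at 27.2 against 8.14, and 2 were lower. The shares of all genes were 21.1% and 22%. SLC7A5 had 475 in the library labelled VCaPENZR and 1.88 in VCaP, the highest ratio of the list there. The CWR-R1 lines lay nearer to that library, with 247 in CWR-R1ENZR and 291 in CWR-R1. UGT1A1, a glucuronosyltransferase, was lower, at 0.179 (3 reads) in the library labelled VCaPENZR against 95.4 (1676 reads) in VCaP, and it shares exons with other UGT1A genes, so its count is uncertain. CYP2S1 had 6.07 (102 reads) in the library labelled VCaPENZR and 0.342 (6 reads) in VCaP. In the CWR-R1 table it went the other way, with 3.69 (55 reads) in CWR-R1ENZR and 7.76 (115 reads) in CWR-R1, which is 2.10-fold lower with an interval of 1.51 to 2.96 and not past 2-fold on the value + 1 scale. NEDD9 was lower, at 7.86 in the library labelled VCaPENZR against 84.0 in VCaP. In the CWR-R1 table NEDD9 was higher, at 11.3 (169 reads) in CWR-R1ENZR and 5.33 (79 reads) in CWR-R1. That ratio of 2.12, with an interval of 1.62 to 2.81, was not past 2-fold on the value + 1 scale.

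Of the proteins that hold AHR in the cytosol, the 2 HSP90 genes went opposite ways in C4-2BENZR by small amounts. HSP90AA1 had 3215 ± 209 in C4-2BENZR and 2389 ± 140 in C4-2B, a 1.35-fold rise (adjusted p = 1.02e-05). HSP90AB1 had 2607 ± 106 in C4-2BENZR and 3118 ± 110 in C4-2B, a 1.20-fold fall (adjusted p = 0.000538). None of the 5 genes of this list passed 2-fold in the CWR-R1 table, where 20.1% of all genes did in either direction.

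Relatives of AHR and ARNT, which compete for or resemble these partners, held 4 genes that rose and 1 that fell among 9 in C4-2BENZR. The shares of all 13280 genes tested there were 27.8% and 29%, and the list was not tested as a set. ARNT2, the neural counterpart of ARNT, had 10.3 ± 1.69 in C4-2BENZR and 4.73 ± 0.633 in C4-2B (adjusted p = 0.000186). EPAS1, the hypoxia factor HIF-2alpha that pairs with ARNT, had 4.55 ± 0.0472 in C4-2BENZR and 1.42 ± 0.917 in C4-2B (adjusted p = 0.000393). The C4-2B libraries held 0.774 and 2.07, and the log2 difference of 1.25 was 0.85 without C4-2B replicate 1 and 1.65 without C4-2B replicate 2. NPAS2, a clock factor, had 14.1 in C4-2BENZR and 6.04 in C4-2B (adjusted p = 1.19e-05). SIM2 rose 1.54-fold, to 30.3 in C4-2BENZR, against 19.6 in C4-2B (adjusted p = 0.000176). In the CWR-R1 table ARNT2 was 4.84-fold higher, EPAS1 2.03-fold and SIM2 2.09-fold higher in CWR-R1ENZR than in CWR-R1, while ARNTL2 was 3.35-fold lower. Relative to VCaP, the library labelled VCaPENZR went the other way for ARNT2, SIM2 and EPAS1. ARNT2 was at 10.8 against 38.4 in VCaP, SIM2 at 29.1 against 577, and EPAS1 at 123 against 290. Beside sensitive CWR-R1, with ARNT2 at 3.10, SIM2 at 18.9 and EPAS1 at 41.9, that library was higher for each. Its ARNTL2 level of 18.4 was higher than in VCaP, at 5.64, and lower than in CWR-R1, at 41.5.

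Enzymes of the kynurenine pathway, which turns tryptophan into known AHR ligands, held no gene that passed in the higher direction in C4-2BENZR or CWR-R1ENZR. With so few genes nothing is read from that. Over all genes, 27.8% rose and 29% fell in C4-2BENZR, and 9.79% were at least 2-fold higher in CWR-R1ENZR. In C4-2BENZR 0 of 5 rose and 3 fell, led by AADAT, a kynurenine aminotransferase, at 64.7 ± 3.12 in C4-2BENZR and 120 ± 0.668 in C4-2B (adjusted p = 7.54e-09). AFMID and CCBL2 also passed, but both lost their calls with total reads as the only scaling. AFMID lost its call without C4-2BENZR replicate 2, and CCBL2 lost its call without C4-2BENZR replicate 1 or C4-2B replicate 2. In CWR-R1ENZR 0 of 4 passed 2-fold in either direction. CCBL1, another kynurenine aminotransferase, had 119 in the library labelled VCaPENZR against 3.24 in VCaP. Relative to VCaP, AADAT was lower in that library, at 7.20 against 28.9, and so was AFMID, at 11.2 against 37.9. Sensitive CWR-R1 had 100 for CCBL1, 9.85 for AADAT and 17.3 for AFMID. The enzymes that open the pathway, IDO1, IDO2 and TDO2, were listed under these symbols in none of the tables used here.

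Of 7 partners of CYP1 enzymes and enzymes that process their products, 5 were lower and 1 was higher in C4-2BENZR. Among all 13280 genes tested there, 29% fell and 27.8% rose, and the list was not tested as a set. The 5 falls ranged from 1.12-fold to 1.90-fold. EPHX1, the epoxide hydrolase that acts on oxidised hydrocarbons, had 370 ± 10.6 in C4-2BENZR and 701 ± 6.44 in C4-2B (adjusted p = 1.13e-10). NAT1, the only gene of this list called higher, rose 1.53-fold (adjusted p = 0.00319) and lost its call without C4-2BENZR replicate 2. CYB5A, an electron donor to P450 enzymes, was the one gene of 7 past 2-fold in the CWR-R1 table, at 28.8 in CWR-R1ENZR and 82.7 in CWR-R1.

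Among 16 coregulators, 7 rose and 4 fell in C4-2BENZR, where 27.8% of all 13280 genes tested rose and 29% fell. NRIP1, a corepressor of nuclear receptors that also binds AHR, rose 2.42-fold, to 60.2 ± 0.604 in C4-2BENZR, against 24.9 ± 0.339 in C4-2B (adjusted p = 3.51e-09). NCOA1, a coactivator, fell 1.63-fold (adjusted p = 1.34e-06). RELB, an NF-kappaB subunit reported to pair with AHR, was the one coregulator past 2-fold in the CWR-R1 table, at 8.18 in CWR-R1ENZR and 2.29 in CWR-R1. In the VCaP table RELB ran the other way, at 4.88 in the library labelled VCaPENZR and 23.7 in VCaP.

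Relatives of TIPARP among the mono-ADP-ribosyl transferases moved in different directions. In C4-2BENZR PARP14 rose 3.90-fold, to 52.1 ± 1.98, against 13.4 ± 1.90 in C4-2B (adjusted p = 5.75e-10). PARP14 was also higher in CWR-R1ENZR, at 96.2 against 65.1 in CWR-R1, a ratio of 1.48 with an interval of 1.36 to 1.60. It was at 46.8 in the library labelled VCaPENZR and 44.6 in VCaP, a ratio of 1.05 with an interval of 0.949 to 1.16. PARP10 fell 10.4-fold, to 11.7 ± 0.933 in C4-2BENZR, against 122 ± 6.82 in C4-2B (adjusted p = 5.10e-14). PARP10 was instead higher in CWR-R1ENZR, at 10.4, than in CWR-R1, at 1.89. In the library labelled VCaPENZR it was lower, at 1.67 against 9.51 in VCaP. TIPARP was higher in C4-2BENZR, CWR-R1ENZR and the library labelled VCaPENZR than in the sensitive line of each table.

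**Figure D5:**
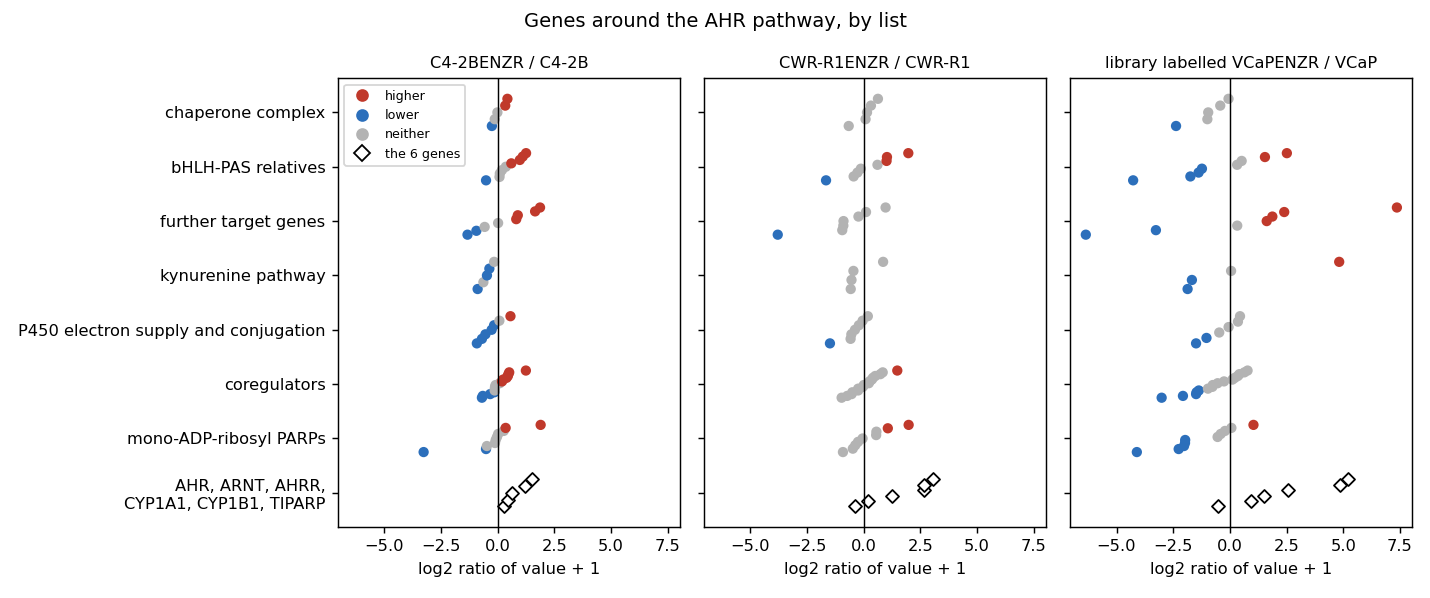
Log2 ratio of value + 1, resistant over sensitive, of each gene of the 7 lists that passed the filter, by table; red and blue points rose or fell (C4-2B, limma adjusted p below 0.05) or were at least 2-fold higher or lower (CWR-R1 and VCaP tables), and open diamonds are AHR, ARNT, AHRR, CYP1A1, CYP1B1 and TIPARP. The list genes fall on both sides of 0, with medians of -0.02 for C4-2B, -0.09 for CWR-R1 and -0.50 for VCaP.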

How the data were processed

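Novogene sequenced polyadenylated RNA as paired ends, and TAC genomics computed the authors' comparisons, per the labels. Reads were placed on hg19, a build named in the submitters' processing notes. The aligner is not given in the sources used here, nor is the counter. The authors deposited 1 table per line with a signal column for each library, a signed fold score, and columns with the p-value and false discovery rate. The last 3 were not used. Deposited signal values were whole reads times a constant per library, since within 0.02 reads 100% of them came out whole. Division by that constant gave 14503586 to 20248655 reads per library, and 3 reads equal a level of 0.142 to 0.202. Replicates differed by more than counting error (mean chi-square per gene of 3.99 for C4-2BENZR, 5.67 for C4-2B, and 1 for counting error alone). The labels call them biological replicates without saying what they share.

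The 6 genes, the 7 lists and the tests were chosen with earlier results of these data known. For C4-2B, limma 3.58.1 in R 4.3.3 (trend, two-sided, 2 libraries against 2, Benjamini-Hochberg, threshold 0.05) was fitted to log2(value + 1) of all genes that reached 1 in 2 or more libraries. With 1 library per group in the other tables, ratios of value + 1 of at least 2-fold were counted where either library reached 5, and no test was made. Intervals are 95% exact binomial (Clopper-Pearson) for ratios and 95% Poisson for levels. They and the floors of 3 reads reflect counting error alone, because reads lacking molecular identifiers can be copies of 1 molecule. Genes named are the 6, up to 4 per list and table with the largest change among those called, the genes most correlated with each of the 6, and their chromosomal neighbours. CYP1A2, ALDH3A1, CYP2S1, ABCG2, NEDD9, EPAS1, PDCD6 and NQO1 were named outside that rule in some tables, after their values were seen. Some genes of the lists are not reported here by name. Alternatives were edgeR 4.0.16 and DESeq2 1.42.0 on the recovered reads, total-read scaling, a pseudocount of 0.25, other filters, a replicate block and each library left out. Gene order and promoters came from RefSeq (GRCh38.p14).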

Additional observations from a re-analysis of the deposited data

Results flagged for a closer look

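CYP1B1 went opposite ways between comparisons. Its log2(value + 1) ratio was -0.40 in CWR-R1ENZR against CWR-R1 and -0.52 in the library labelled VCaPENZR against VCaP, while it was 0.44 in C4-2BENZR against C4-2B. Both C4-2BENZR libraries were above both C4-2B libraries. The difference between these effects was not tested, because the CWR-R1 and VCaP tables hold 1 library per group. CYP1B1 rests on 92 to 256 reads per library. The library labelled VCaPENZR, whose line of origin is uncertain, had a level of 9.82, nearly that of sensitive CWR-R1, at 9.85.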

How the results depend on the processing

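No direction of the 6 genes changed under any alternative run in any table. In C4-2BENZR against C4-2B the log2 ratio of AHR was 0.89 with edgeR and 0.89 with DESeq2 on the recovered reads, against 0.62; that of CYP1A1 was 1.70 with edgeR, 1.70 with DESeq2 and 1.64 with a pseudocount of 0.25, against 1.49; and that of CYP1B1 was 0.52 with total reads as the only scaling, against 0.44. The other 70 of 76 values moved by less than the spread between replicates or the counting interval. With each C4-2B or C4-2BENZR library left out, the ratios ran from 0.49 to 0.75 for AHR, 0.18 to 0.38 for ARNT, 0.19 to 0.66 for AHRR, 1.40 to 1.58 for CYP1A1, 0.38 to 0.49 for CYP1B1 and 1.05 to 1.37 for TIPARP. AHRR failed the filter and was not fitted by edgeR or DESeq2. Genes called in C4-2B numbered 7547, and 5962 to 6804 with a library left out. edgeR on the recovered reads called 7522 and DESeq2 6378. Total reads as the only scaling raised the median of all genes by 0.10 and shifted the calls to 4757 higher and 2923 lower (61.9% higher, against 48.9%); among pathway genes it gave 24 higher and 14 lower, against 20 and 18. Equal replicate numbers were not shown to pair the libraries (correlation of deviations 0.05 over 13280 genes); a replicate block called 8248 genes, and 43 pathway genes in place of 38. Of 26 named pathway genes, 22 kept their call under every alternative in which they were tested; AFMID, CCBL2, NAT1 and PARP9 did not. CYP2S1 and GSTA1 failed the filter when either C4-2BENZR library was left out. Low counts limit AHR and AHRR in the C4-2B table.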
